A study of Mus musculus with 2 samples.

Results

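The fibroblast growth factor (Fgf) ligand genes, the Fgf receptor genes and the Sprouty genes were examined for nearby ISL1 CUT&Tag intervals in the embryonic mouse retina. The set holds 30 named genes, 22 for ligands, 4 for receptors and 4 for Sprouty proteins, out of 21883 protein-coding genes. It was chosen by family name, and 29 of the 30 could be scored. Each gene was given a territory, its span plus 50 kb on both sides, and all intervals overlapping that territory were collected. The 29 territories covered 5194.4 kb and held 285 of 123923 intervals of replicate 1 and 311 of 158881 of replicate 2. The data were 2 libraries of 1 group, wild-type retina at E13.5 profiled with antibodies against ISL1, a LIM-homeodomain factor of retinal ganglion cells. In CUT&Tag a transposase tethered to the antibody cuts and tags DNA near the bound protein. An interval is a listed stretch covered by tagged fragments, in some cases with a coverage of only 1. The labels name 2 rabbit antibodies, from Millipore and Abcam, without saying which library received which. No other genotype, treatment or control antibody was analysed here, and whether the libraries came from separate animals is not given in the sources used here. Whole retina was used, so the cell type in which an interval arose was not resolved. As a check of tissue, 5 of 5 retinal genes (Isl1, Pou4f2, Atoh7, Six6 and Pax6) had a shared interval within 50 kb and 1 of 3 genes of other tissues did (Alb, but not Ins2 or Myod1). Since 55.7% of all genes have one, these 8 genes say little about the tissue.

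Secreted Fgf proteins bind receptor tyrosine kinases on the cell surface together with heparan sulfate and activate the Ras and MAP kinase cascade. Sprouty proteins are induced by this cascade and restrain it. In the developing eye Fgf signals favour neural retina over pigment epithelium, and in chick and fish embryos Fgf from the optic stalk and central retina takes part in starting neurogenesis.

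A shared interval joins all intervals of replicate 1 and replicate 2 that touch one another over 1 bp or more. An interval was called uneven where its total signal, the coverage summed over its bases, was under 95% of its width times its maximum signal, the highest coverage. In the flat intervals every base had the same coverage. Flat intervals made up 82% of the whole list of replicate 1 and 83.3% of that of replicate 2. Among the members' intervals they made up 82.8% and 82.3%. Because duplicate removal is not known, their signal cannot be read as a number of separate fragments. Shared intervals were placed from 1 to 13704 after averaging the rank that each list gave to their total signal, place 1 being the strongest. Where a list had several intervals in one union, its best rank counted, maximum signal is the highest of them and total signal their sum. Intervals of the 2 lists can meet in a few bases only, so the bases covered by both are given below where they matter. Spry3 was not scored, since its position in the gene table (chromosome X, 101352 to 110912) lies before the first interval of that chromosome, at 3060384. Its count of 0 is therefore not a measurement.

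Spry2 had 3 shared intervals, with maximum signals of 13 or more in both lists, but in 2 of them the lists met over 28 and 63 bp only. Fgf9 had 4, of which 2 reached 15 or more in both lists and 2 were weak. Fgf14 had 5, none above 4 in replicate 1, and in some of them the lists met over 9 bp only. The strongest single shared interval, near Fgfr1, lay in another gene. Fgf15 and Spry2 were the only scored members with a shared interval at a gene end, meaning within 1 kb of either end of the gene. At least 1 shared interval lay within 50 kb of 19 of 29 members (65.5%), against 55.7% of 21773 protein-coding genes. Among genes with spans under 20 kb this held for 10 of 17 members against 50.6%, from 20 to 100 kb for 6 of 8 against 56.7%, and at 100 kb or more for 3 of 4 against 76.9%. A count of 2 or more was reached by 10 members (34.5%, against 23.9%), and of 3 or more by Fgf9, Spry2 and Fgf14 (10.3%, against 9.71%). An interval of each list, shared or not, lay near 28 members, against 99.2% of all genes, so mere presence in both lists says little about a gene. The shares of members lay above the background for some of these counts and near or below it for others, and no test was made.

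The 33 distinct shared intervals of the members formed 35 pairs with genes, because 2 of them lie in the territories of both Fgf4 and Fgf15, neighbours on chromosome 7. Their density was 0.635 per 100 kb, beside 0.583 in the territories of all protein-coding genes. Of the members' intervals, 12.6% (95% Wilson interval 9.27 to 17.0) of replicate 1 and 11.3% (8.20 to 15.2) of replicate 2 were shared. The corresponding values over the territories of all genes were 11.9% and 9.74%, within those intervals. Uneven intervals made up 8.07% (5.44 to 11.8) and 6.43% (4.20 to 9.72) of the members' intervals, beside 6.6% and 6.13% around all genes. Wilson intervals cover counting error only.

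**Figure D1:**
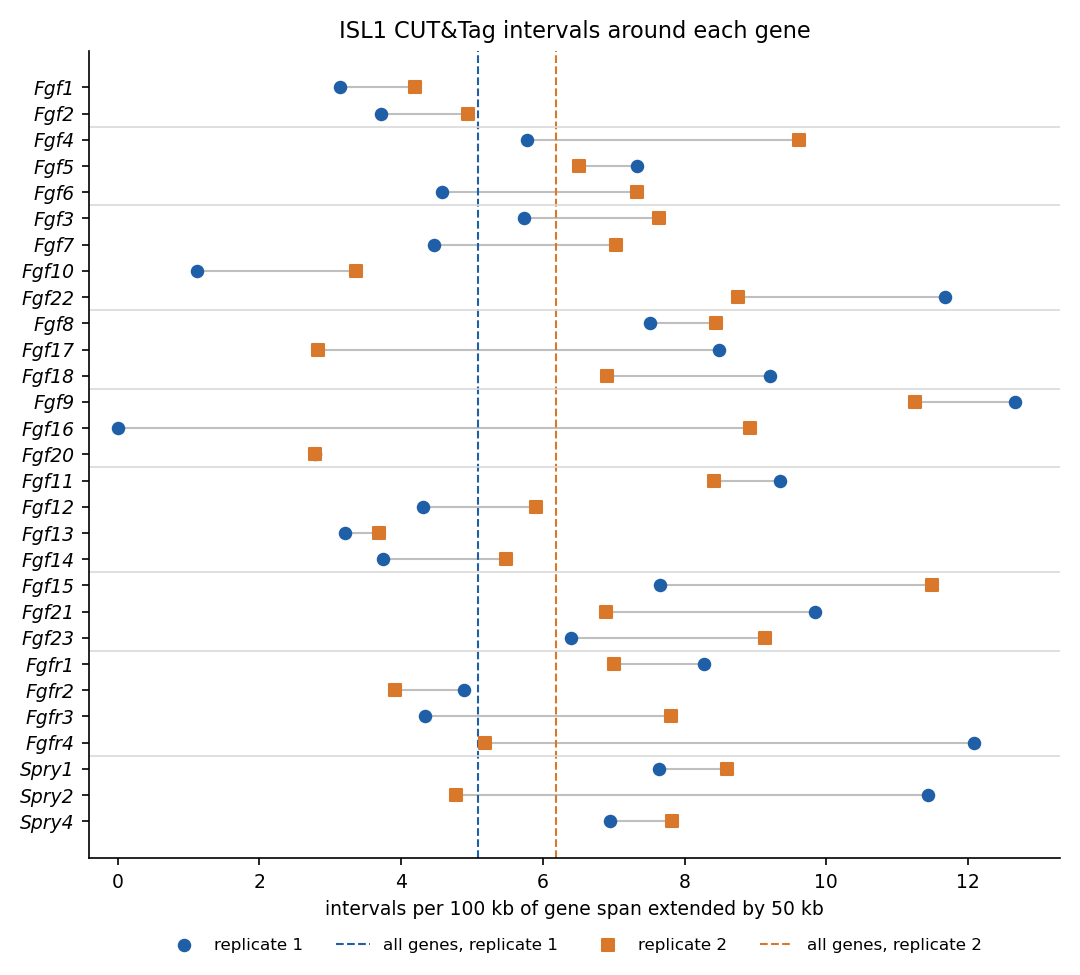
Intervals per 100 kb of territory for the 29 scored genes (rows, grouped by subfamily) in replicate 1 (circles) and replicate 2 (squares), with dashed lines at the value over all protein-coding gene territories. Fgf9 has 12.66 and 11.25 per 100 kb, above both lines, while the points of Fgf20 coincide and Fgf16 has 0 in replicate 1 and 8.92 in replicate 2.

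For several members the density of all intervals differed widely between replicates, as the plot of intervals per 100 kb shows. Fgf16, a ligand gene of the Fgf9 subfamily on chromosome X, had 0 intervals in replicate 1 and 10 in replicate 2. Fgfr4 had 14 and 6, Spry2 had 12 and 5, and Fgf17 had 9 and 3. Fgf9 was high in both lists, with 18 and 16, and Fgf10 was low in both, with 2 and 6.

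Among the Sprouty genes, Spry2, a feedback inhibitor of receptor tyrosine kinase signalling, had 3 shared intervals, all uneven in 1 list. Spry2 lies on chromosome 14, 105891947 to 105896819 in mm10, on the minus strand. The strongest, at 105920449 to 105921129, had its midpoint 23970 bp upstream of the gene. Its maximum signal was 31 in replicate 1 and 18 in replicate 2, its total signal 10600 and 9036, and its place 450. The next, at 105897193 to 105898678, lay 1116 bp upstream by its midpoint, with place 550. It joins side-by-side stretches: replicate 1 had intervals of 170 and 715 bp with maximum signals of 17 and 27, and the 629 bp interval of replicate 2 between them (maximum signal 13) overlapped them by 19 and 9 bp. The last, at 105895471 to 105896618, overlapped the gene, centred 775 bp downstream of the start. Its place was 1375. Replicate 2 had an interval of 889 bp there with a maximum signal of 31, while replicate 1 had a flat one of 54 bp inside it, at 33, and one of 268 bp that met it over 9 bp, at 19. The interval far upstream was covered by both lists over 461 of 681 bp, the 2 near the start over 28 of 1486 and 63 of 1148 bp. The upstream intervals were uneven in replicate 1 only and the one inside the gene in replicate 2 only. A count of 3 or more shared intervals uneven in at least 1 list was reached by Spry2 and Fgf9, that is 2 of 29 members (6.9%), and by 1.47% of all genes. For Fgf9 that count includes 1 interval with maximum signals of 1 and 2. With a reciprocal overlap of 50% no member reached 3, and Spry2 kept 1 shared interval and Fgf9 kept 2. Those of Fgf9 had maximum signals of 26 and 18 and of 6 and 1, and only 1 of them was uneven. The strong downstream one of Fgf9, at 15 and 28, was lost.

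The inner pair of Spry2 intervals left a gap of 574 bp, and the start site lay in that gap. The promoter window from 250 bases before to 50 after the start (chromosome 14, 105896770 to 105897069) was under no interval of either list, with the nearest 124 bp away in replicate 1 and 152 bp away in replicate 2. The sequence of this window, minus strand, GRCm38.p6 (mm10), from RefSeq, is shown because intervals of each list lie on both sides of it. It is in lower case throughout, as no base was covered.
Spry2: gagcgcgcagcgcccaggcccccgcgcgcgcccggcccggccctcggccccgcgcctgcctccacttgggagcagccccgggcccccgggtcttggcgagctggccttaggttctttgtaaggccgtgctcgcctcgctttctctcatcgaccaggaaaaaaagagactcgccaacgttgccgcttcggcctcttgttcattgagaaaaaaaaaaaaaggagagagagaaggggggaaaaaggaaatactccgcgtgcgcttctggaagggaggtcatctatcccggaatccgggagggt

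Spry4, another Sprouty gene (chromosome 18, 38586247 to 38601347), had no shared interval within 50 kb, although both lists held intervals at the same gene end. The interval of replicate 1 was uneven and began 46 bp beyond the gene, in Arhgap26, and it reached a maximum signal of 25 and a total of 11255. Replicate 2 had 2 flat intervals within Spry4 that reached 25 and 1. The one at 1 was 97 bp from that of replicate 1, which began at 38601393. The one at 25 lay farther off, ending at 38601098. Spry1 had 8 and 9 intervals, of which none was shared or uneven.

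**Figure D2:**
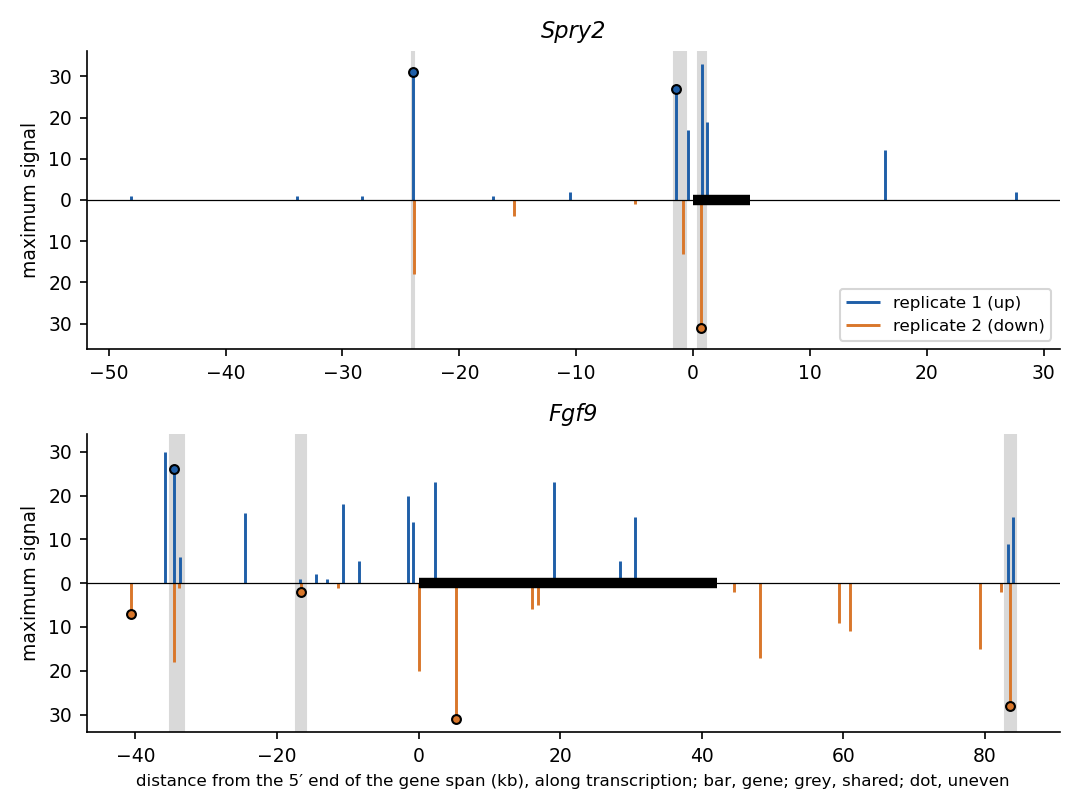
Intervals around Spry2 (top) and Fgf9 (bottom) by distance from the 5′ end of the gene span in kb, with maximum signal in replicate 1 drawn upward and in replicate 2 downward. Grey bands mark shared intervals, widened by a fixed margin for visibility; dots mark uneven intervals. The Spry2 bands flank the start site and sit 23970 bp upstream, whereas the Fgf9 bands lie outside the gene.

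Among the ligands, Fgf9 had 4 shared intervals, all outside its span and all with Fgf9 as the nearest gene. Fgf9 is made in the neural retina and its excess turns pigment epithelium into neural retina. The gene lies on chromosome 14, 58070671 to 58112854, on the plus strand. The strongest shared interval, at 58035810 to 58036444, was centred 34544 bp upstream of the gene. Its maximum signal was 26 in the first list against 18 in the second, with total signals of 11534 and 7416, and place 640. Both lists covered 412 of its 635 bp. A weaker one at 58036592 to 58037248 stood beside it, with maximum signals of 6 and 1. At 58053594 to 58054454, 16647 bp upstream, the maximum signals were only 1 and 2. Downstream, at 58153769 to 58154718, the maximum signals were 15 and 28 and the place was 1292.

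The strong Fgf9 intervals therefore lay to both sides of the gene and each was uneven in 1 list. At the end of the gene at 58070671 each list had a flat interval, with maximum signals of 14 and 20, but 413 bp lay between them and they were not shared. Inside the gene, replicate 2 alone had an uneven interval (58075580 to 58076247) with a maximum signal of 31. Of the other ligand genes of this subfamily, Fgf20 had 3 intervals in each list and Fgf16 had them in 1 list only, and neither had a shared interval.

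Fgf15, the mouse counterpart of human FGF19 and a gene of retinal progenitors, had a shared interval 115 bp outside the end of the gene at chromosome 7, 144896532. It was flat in both lists, with maximum signals of 3 and 10 and place 5641. A stronger one, at 144906647 to 144907195, lay 5694 bp beyond the other gene end, at maximum signals of 21 and 12 and place 2498. Replicate 2 also had an uneven interval across the gene end (144896454 to 144896948, maximum signal 29), which replicate 1 did not have. The same pair of shared intervals lay within 50 kb of Fgf4, at 30069 and 41402 bp, so for Fgf4 they are not separate evidence. Fgf3, the third gene of the cluster and a ligand of the inner ear and hindbrain, had 1 shared interval, at 49423 bp, uneven in replicate 2 with maximum signals of 14 and 23.

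Of the endocrine ligands, which act with Klotho co-receptors, Fgf21 had a shared interval at chromosome 7, 45643638 to 45644360, inside Mamstr and 28148 bp from Fgf21. Its maximum signals were 41 and 26 and its place 2020. Fgf23 had 1 inside Tigar, with both ends identical in the lists and maximum signals of 27 and 1.

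Fgf2, the basic ligand and one of the first described, was the only scored member with a shared interval uneven in both lists, against 7.57% of all genes. It lay at chromosome 3, 37419478 to 37420241, 9372 bp beyond the gene, at an end of Nudt6, whose transcript is antisense to Fgf2, and within 1 kb of an end of Spata5. Its maximum signals were 33 and 36, its total signals 2754 and 13389, and its place 2911. It joins 1 interval of replicate 1 with 2 of replicate 2, and all 3 were uneven. The overlaps were 77 and 55 bp, so both lists covered 132 of its 764 bp. Fgf1, its nearest relative, had a flat shared interval inside its span (chromosome 18, 38895227 to 38895974) with maximum signals of 8 and 21 and place 1329. The midpoint of that interval also lay inside Gm5820, which was scored as its nearest gene.

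Fgf8, an organiser ligand of the optic stalk and central retina, had 1 shared interval, 40619 bp from the gene and at an end of Oga. Its maximum signal was 48 in replicate 1, where it was uneven, and 1 in replicate 2. On the other side of Fgf8, 24952 bp away, replicate 1 had an uneven interval (45711134 to 45711539, maximum signal 34) that replicate 2 lacked. Fgf22, a presynaptic organiser, had 2 shared intervals, in Bsg and in Rnf126, the latter uneven in replicate 2 with maximum signals of 8 and 17 and place 1795. The one in Bsg had 19 and 23, but both lists covered only 9 of its 310 bp. Fgf18 had a flat one at 33320 bp with 9 and 7, and Fgf5 one with 1 and 1 at 48482 bp. Fgf6, Fgf7, Fgf10 and Fgf17 had none.

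The intracellular members Fgf11, Fgf12, Fgf13 and Fgf14 are not secreted and bind voltage-gated sodium channels. All 4 had shared intervals, against 55.7% of all genes and 76.9% of those with spans of 100 kb or more. Of their 10 shared intervals, 9 had 1 of these genes as the nearest gene. These 9 lay inside the long spans of Fgf12, Fgf13 and Fgf14, so that count says little about the group. Fgf12, Fgf13 and Fgf14 have spans of 595461, 523434 and 703246 bp, and the density of shared intervals around them was 0.424 per 100 kb, beside 0.781 around the other members. Signals there were low: 33.8% (24.3 to 44.6) of their intervals in replicate 1 and 40.7% (31.9 to 50.2) in replicate 2 had a maximum signal of 1 or 2, beside 16.1% and 27.1% around the other members, 21.7% and 26.6% around all protein-coding genes and 25.8% and 30.6% in the whole lists. The values around all protein-coding genes lie below the intervals of both replicates. That of the whole list lies inside the interval for replicate 1 and below it for replicate 2. These intervals cover counting error only and treat neighbouring intervals as independent. The best shared interval of Fgf14 (124675996 to 124676634) lay 1371 bp inside the 5′ end of its span, with maximum signals of 4 and 25. That of Fgf12 had 13 and 2. The Fgf14 shared intervals at 123997367 to 123997816 and at 124000167 to 124000616 were each covered by both lists over only 9 of 450 bp. Fgf13 had 1 at chromosome X, 59134703 to 59135252, uneven in replicate 1, with 6 and 22. It lay inside the span but beside 1 of the Fgf13 promoter windows (59134387 to 59134686), 17 bp from it in replicate 1 and 464 bp in replicate 2. The other Fgf13 shared interval, at 59465949 to 59466500, was covered by both lists over only 9 of 552 bp. Fgf11, the short member, had 1 inside Nlgn2, 25427 bp away, with a maximum of 25 in both lists and place 2227.

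**Figure D3:**
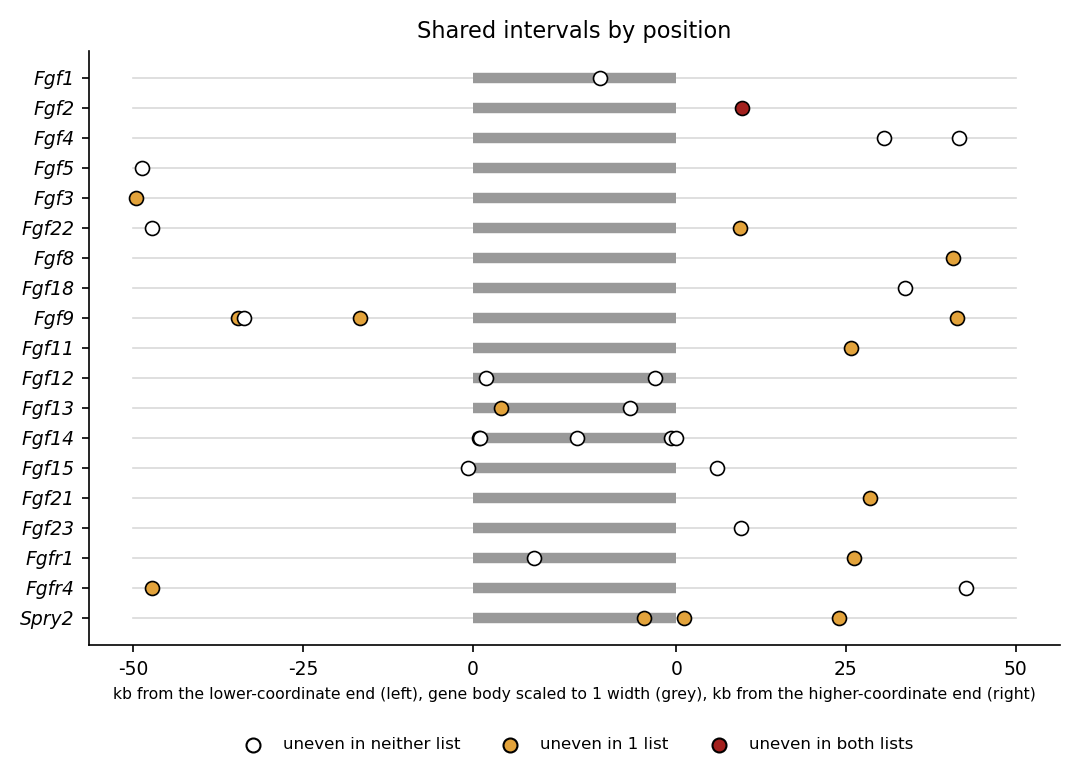
Position of the shared intervals of the 19 members that have any, in kb outside the gene on either side, with the gene body drawn at 1 fixed width; the coordinate increases to the right. Intervals inside genes are those of Fgf1, Fgf12, Fgf13, Fgf14, Fgfr1 and Spry2, and Fgf2 alone has 1 that is uneven in both lists.

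Among the receptors, Fgfr1 and Fgfr4 had shared intervals and Fgfr2 and Fgfr3 had none. The strongest shared interval of the whole set, at chromosome 8, 25601435 to 25602242 and place 228, lay 25717 bp from Fgfr1 at an end of Nsd3, a histone methyltransferase gene. Its maximum signal was 38 in the first list against 26 in the second, and its total signals 19681 and 11102. Inside Fgfr1 itself the shared interval (25535739 to 25536135) had maximum signals of 1 and 24. The Fgfr4 intervals lay in Zfp346 (6 and 31, uneven in replicate 2) and Nsd1 (1 and 15), at 47012 and 42546 bp. The receptor genes Fgfr2 and Fgfr3 had 10 and 5 intervals in replicate 1 and 8 and 9 in replicate 2, none shared.

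**Figure D4:**
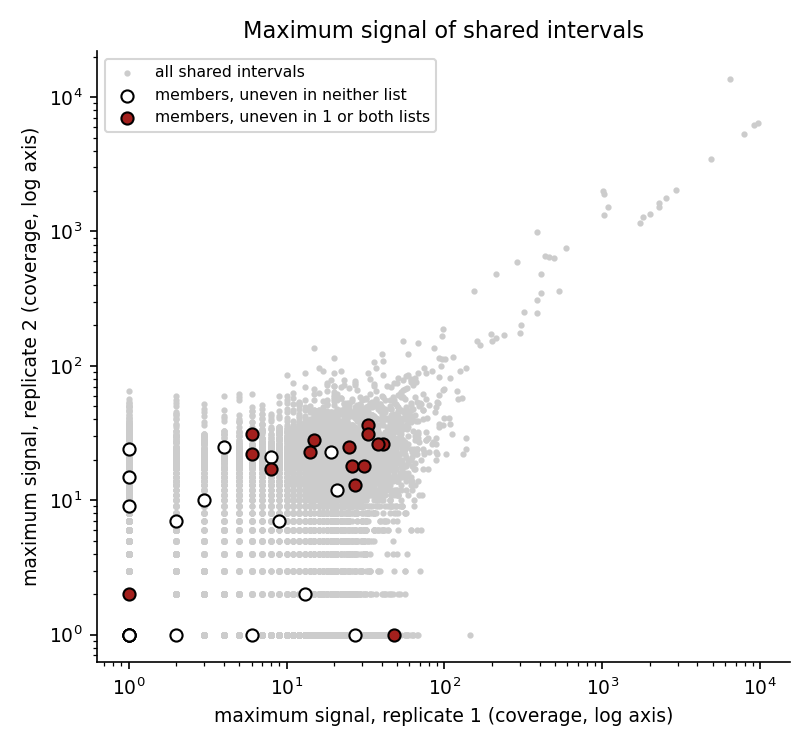
Maximum signal of each shared interval in replicate 1 (horizontal) and replicate 2 (vertical) on log axes, for all 13704 (grey) and the 33 of the members (circles, filled where uneven in 1 or both lists). Of the 33, 12 have a maximum of 10 or more in both lists and 6 have a maximum of 1 or 2 in both.

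Taking the 33 as a whole, the scatter of maximum signals shows 12 (36.4%) with at least 10 in both lists, against 28.5% of all 13704, and 6 (18.2%) at 1 or 2 in both, against 18.3%. Among the 1000 strongest of all shared intervals, 7.3% of them, were 4 (12.1%), namely 1 of Fgfr1, 1 of Fgf9 and 2 of Spry2. The median share of bases covered by both lists was 26% for the members and 39.4% for all, and it was under 10% in 7 of the 33 (21.2%), against 13.0% of all. An uneven profile in at least 1 list was seen in 15 of 33, or 45.5% (29.8 to 62.0), 8 in replicate 1 alone, 6 in replicate 2 alone and 1 in both. The value over all 13704, near genes or not, was 29.6%. The Wilson interval covers counting error only and treats neighbouring intervals as independent. A shared interval was called uneven in a list where any of its intervals in that list was, and no test was made. By gene, 11 of 29 members (37.9%) had such a shared interval, against 24.9% of all genes. A shared interval with a maximum signal of 10 or more in both lists lay near 10 members (34.5%), against 28.0%. For Fgf22 that was the one in Bsg, covered by both lists over only 9 of 310 bp. Only 19 of the 33 had a member as the nearest gene, 15 near ligand genes, 3 near Spry2 and 1 in Fgfr1. At an end of any gene lay 7 (21.2%), of which 3 at a member's end. The share over all 13704 was 15%, but only 9803 of these lay within 50 kb of a protein-coding gene, as all 33 do by selection. Intervals farther away cannot lie at a gene end, so these shares are not over like sets and show no excess for the members.

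At the limits of the rule, the farthest shared interval inside the 50 kb was that of Fgf3 at 49423 bp, and the nearest outside was that of Spry4 at 51425 bp, with maximum signals of 16 and 7. The ratio of total signal to width times maximum signal was 0.944 for 1 of the Fgf2 intervals of replicate 2, just inside the limit for uneven, and 0.984 for a Fgf16 interval of replicate 2, just outside.

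Gene ends of members held intervals in 13 of 29 cases in replicate 1 (background 39.1%) and 11 in replicate 2 (38.5%). Both lists had one for 7 members (24.1%, against 19.4% of all genes), Fgf9, Fgf11, Fgf15, Fgf17, Fgf23, Spry2 and Spry4. At the same end this held for Fgf9, Fgf15, Spry2 and Spry4, and they overlapped for Fgf15 and Spry2, 2 of 29 members (6.9%, against 10.4%). Uneven intervals were found near 9 further members, none of them in a shared interval. Among ligands the strongest by total signal within replicate 1 was that of Fgf17 (at Fam160b2, maximum signal 48, total 10393), and within replicate 2 the one across the end of Fgf15 (maximum signal 29, total 8019). Those of Fgfr2 (replicate 1, maximum signal 21, total 4734) and Spry4 (replicate 1, above) were the only ones near these receptor and Sprouty genes. An uneven interval of either list lay near 20 of 29 members, against 58.8% of all genes. By list this was 14 members in replicate 1 (48.3%, against 39.4%) and 11 in replicate 2 (37.9%, against 40.7%).

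Promoter sequences from RefSeq, GRCm38.p6, covered 21 members in 28 windows of 250 bases before to 50 after a start. Shared intervals lay over 0 of the 28, against 5.65% of the 32851 windows of the table, and intervals of 1 list only lay over 4, against 19.4%. The 4 were those of Fgf11 and Fgf21 in replicate 1 and of Fgfr2 and Fgfr3 in replicate 2. All 4 intervals were flat. The Fgf11 interval had a maximum signal of 12 and covered 270 bases of the window, and the Fgf21 interval had 14 and covered 211. The Fgfr2 interval had 18 and covered 111 bases, and the Fgfr3 interval had 20 and covered 193. The windows are shown because they are the promoters of the set under an interval, with the covered bases in capitals. They lie at chr11:69802231-69802530, chr7:45615441-45615740 and chr7:130266759-130267058 on the minus strand and at chr5:33722056-33722355 on the plus strand.
Fgf11: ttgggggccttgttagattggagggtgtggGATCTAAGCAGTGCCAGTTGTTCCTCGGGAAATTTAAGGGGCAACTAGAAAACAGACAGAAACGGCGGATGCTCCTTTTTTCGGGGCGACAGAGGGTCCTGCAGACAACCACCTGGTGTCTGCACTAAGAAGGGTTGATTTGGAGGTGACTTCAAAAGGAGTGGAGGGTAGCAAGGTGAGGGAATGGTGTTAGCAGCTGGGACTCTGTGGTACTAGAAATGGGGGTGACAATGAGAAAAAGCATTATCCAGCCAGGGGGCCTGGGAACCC
Fgf21: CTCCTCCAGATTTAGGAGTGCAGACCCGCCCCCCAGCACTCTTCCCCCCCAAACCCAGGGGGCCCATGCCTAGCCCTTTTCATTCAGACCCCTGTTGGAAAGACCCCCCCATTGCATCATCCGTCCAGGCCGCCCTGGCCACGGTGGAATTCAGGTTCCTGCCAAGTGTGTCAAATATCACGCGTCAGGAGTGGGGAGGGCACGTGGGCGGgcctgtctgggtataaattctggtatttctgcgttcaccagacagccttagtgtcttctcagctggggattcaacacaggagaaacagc
Fgfr2: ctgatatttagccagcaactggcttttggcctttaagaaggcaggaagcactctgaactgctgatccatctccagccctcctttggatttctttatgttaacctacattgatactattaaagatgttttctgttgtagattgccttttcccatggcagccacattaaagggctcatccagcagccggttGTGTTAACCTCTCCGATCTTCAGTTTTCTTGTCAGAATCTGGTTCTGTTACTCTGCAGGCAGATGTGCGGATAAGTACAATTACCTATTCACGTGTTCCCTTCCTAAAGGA
Fgfr3: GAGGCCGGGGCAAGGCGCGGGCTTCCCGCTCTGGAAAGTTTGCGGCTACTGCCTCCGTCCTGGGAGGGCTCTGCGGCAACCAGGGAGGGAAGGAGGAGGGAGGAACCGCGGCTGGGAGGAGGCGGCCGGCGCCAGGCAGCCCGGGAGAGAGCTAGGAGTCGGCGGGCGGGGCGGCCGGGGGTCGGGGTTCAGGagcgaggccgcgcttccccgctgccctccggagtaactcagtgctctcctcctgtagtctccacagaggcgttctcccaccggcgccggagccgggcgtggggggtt

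Motif matches were counted on both strands. The homeodomain words were the palindrome TAATTA, its variant form TAATTG, the word TAATGG and the word CTAATG. The others were ATTAAT, found within sites of POU4F factors, the E-boxes CAGCTG and CATATG, and the Ets-type word GGAAGT. Matches to TAATGG and to CTAATG can overlap within 1 stretch. The capitals of Fgfr2 hold 1 match to TAATTG, in its reverse form, 17 bases into the transcribed part, and those of Fgf11 hold 1 match to CAGCTG at position -27 from the start. The CAGCTG of Fgf21, at position 21, lies in its uncovered part. The Spry2 and Fgfr3 windows printed hold none of the words. Of the 28 windows, CAGCTG was found in 6 (against 16.3% of all 32851) and TAATGG in 3 (7.73%). Found in 2 windows each were TAATTG (8.0%), CTAATG (7.36%), and ATTAAT (4.75%). In 1 window each were CATATG (3.91%) and GGAAGT (23.8%), and in 0 was TAATTA (5.29%). The windows of the members had a median GC content of 63.2%, beside 52.7% for all windows. A match describes letters only.

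Other genes of the pathway were counted in the same way. Of 40 listed genes, which encode co-receptors, adaptors, kinases, feedback inhibitors, Ets factors and heparan sulfate enzymes, 28 (70.0%) had a shared interval within 50 kb, against 55.7% of all genes. Shared intervals uneven in at least 1 list lay near 13 (32.5%, against 24.9%). Those uneven in both lists were near 3 genes (7.5%, against 7.57%), Flrt3, the Ets factor gene Etv4 (21 and 16, inside Dhx8) and the kinase gene Braf (12 and 51, inside Adck2). The best places were those of Map2k2, which encodes a MAP kinase kinase (place 655, maximum signals of 14 and 20, at the gene's end), and Dusp6, a phosphatase that inactivates ERK (place 930, 24 and 31, 1164 bp away). Flrt1, a transmembrane partner of Fgf receptors, followed at place 1085 with an interval inside Macrod1. Mapk3, which encodes ERK1, had one inside Aldoa at place 1577. The Flrt3 interval had 22 and 19 and lay inside the gene, and Spred1, a relative of the Sprouty genes, had 12 and 54 at a gene end. Shared intervals at gene ends were found for 4 of the 40 (10.0%, against 10.4% of all genes), Map2k2, Spred1, Braf and Spred3.

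**Figure D5:**
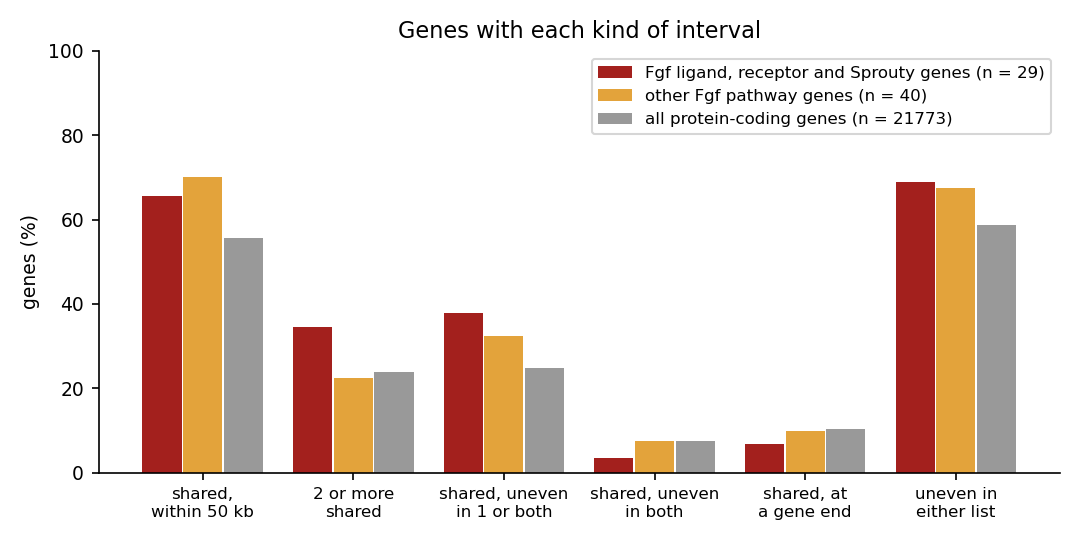
Percent of genes with each kind of interval, for the 29 scored members, the 40 other pathway genes and all 21773 protein-coding genes. Members and all genes are at 65.5% and 55.7% for a shared interval within 50 kb and at 6.9% and 10.4% for one at a gene end.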

How the data were processed

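ISL1 CUT&Tag was measured in 2 wild-type retina libraries at E13.5. The authors deposited 1 interval list per library without a header, whose signal columns hold whole-number coverage, total and maximum per interval. Per the submitters' processing notes, mm10 was the build, and SEACR, MACS2, Bowtie2 and FastQC are listed without versions or roles. The caller behind the lists, its threshold and any duplicate removal were not given in the sources. Signal therefore ranks intervals within a list only. Read depth is unknown.

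Only intervals on the autosomes, X and Y entered. Gene spans came from RefSeq (GRCm38.p6, the mm10 assembly), without exons. Genes placed before the first interval of their chromosome, 110 of 21883, were left out after the data were examined. Members, gene lists and motifs were chosen with earlier results of these data known. Members were described singly when a shared interval was uneven in at least 1 list, at a gene end or had a maximum signal of at least 10 in both lists; of other pathway genes, those with a shared interval uneven in both lists and the 6 best placed were. Other genes were named after their values were seen. No promoter met the rule for printing (both lists over the window), so those printed were chosen after their values were seen. With 1 group no test was made. Python 3.11.15, pandas 2.3.3 and scipy 1.17.1 were used, and overlap finding was tested on simulated data. Alternatives changed the flank, overlap, threshold, uneven limit and assignment.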

Additional observations from a re-analysis of the deposited data

How the results depend on the processing

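Signal is not comparable in size between the lists, since read depth is unknown, and 2 libraries limit every count. Of 57 alternative values, 37 lay within 1.5 times the main count. The share of all genes under each alternative is not given, so the counts below cannot be set against the background shares above. Whether members lost more or fewer calls than other genes was not tested. With 20 kb around genes, 11 members had a shared interval, 5 a shared interval uneven in at least 1 list and 11 an uneven interval in either list. With a reciprocal overlap of 50%, 8 members had a shared interval, 4 one uneven in at least 1 list and 0 one at a gene end, and 18 pathway genes had a shared interval; Fgf9, Spry2, Fgfr1 and Fgfr4 were the 4. Without the intervals of each list below its median total signal, these were 10, 6 and 1 for the members. With maximum signals of at least 5, 1 member (Spry2) had a shared interval at a gene end. Counting only intervals whose nearest gene is the member left 7 members with a shared interval, 3 (Fgf9, Spry2 and Fgf13) with one uneven in at least 1 list and 10 with an uneven interval in either list, and 18 pathway genes with a shared interval. Uneven intervals in a single list were near 11 to 14 members, the 11 being without replicate 1. By construction these alternatives narrow the territories, tighten the criterion for sharing, remove intervals or restrict their assignment. The count of members with 3 or more shared intervals uneven in at least 1 list (2, Spry2 and Fgf9) was recomputed after seeing the data: it was 0 at 20 kb and 0 with the reciprocal overlap, and 1 (Spry2) both without the weaker intervals and with maximum signals of at least 5. Keeping the genes not placed on the lists' chromosomes, an alternative chosen after seeing the data, changed no count. Spry2 and Fgf9 had at least 1 shared interval uneven in at least 1 list under each alternative that alters shared intervals, but at 20 kb that of Fgf9 is the one with maximum signals of 1 and 2, and with the reciprocal overlap Spry2 lost both intervals near its start. No paired analysis was possible because there is only 1 group.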
